A study of Mus musculus with 6 samples.

Results

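The genes described here are 10 components and targets of the leukemia inhibitory factor (LIF) pathway: the cytokine gene Lif, the receptor genes Lifr, Il6st and Osmr, the transcription factor gene Stat3, and the STAT3 target genes Socs3, Junb, Pim1, Pim3 and Bcl3. They were chosen by symbol, taking every non-control probe whose gene name on the array equals one of the 10 symbols. That gave 16 of the 41174 probes on the array and 9 of its 27962 gene names, since no probe carried the name Lif. The samples were mouse embryonic stem (ES) cells in culture, of an F1 background between strains 129 and C57BL/6. The cells can form all tissues of the body, and they had been treated for 48 h with a scrambled control siRNA (3 arrays) or with an siRNA against BRG1 (3 arrays), the ATPase subunit encoded by Smarca4 that powers SWI/SNF chromatin remodeling complexes. No other allele or agent is given for either group, and the labels name neither the ES cell line nor its medium, so it is not known here whether LIF was added.

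LIF holds mouse ES cells in the undifferentiated state in culture. It binds a receptor made of LIFR and gp130, the product of Il6st, whose associated JAK kinases phosphorylate STAT3, and STAT3 then enters the nucleus and switches on target genes. Among those targets SOCS3 shuts the receptor down again, JUNB is an AP-1 transcription factor, PIM1 and PIM3 are serine/threonine kinases, and BCL3 is a nuclear IκB-family cofactor. OSMR pairs with gp130 to form the receptor of oncostatin M, a relative of LIF.

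Each gene was read with 60-base probes, and the probes that passed the test, or whose strand bears on a result, are shown here 5′ to 3′ as the array files give them. Lifr probe 1 and probe 3 are the 2 Lifr probes that passed, Pim1 probe 2 is the one that passed, and Pim1 probe 1 lies on the other strand of the same gene.
Lifr probe 1: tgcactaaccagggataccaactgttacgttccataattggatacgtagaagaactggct
Lifr probe 3: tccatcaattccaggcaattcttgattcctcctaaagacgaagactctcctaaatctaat
Pim1 probe 2: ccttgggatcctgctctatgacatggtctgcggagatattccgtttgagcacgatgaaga
Pim1 probe 1: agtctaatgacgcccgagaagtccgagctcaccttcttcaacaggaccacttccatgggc
The coordinates in the array files are those of mouse build mm7. Lifr probe 1 was placed at chr15:7011508-7012314 on the plus strand, a span of 807 bases for a 60-base probe, so its placement is split by sequence that the probe does not hold. Lifr probe 3 was placed at chr15:7017869-7017928, plus strand. Pim1 probe 2 lay at chr17:27685743-27685802 on the plus strand, which is the strand of the gene in RefSeq, whereas Pim1 probe 1 lay at chr17:27683630-27683689 on the minus strand. It was the only 1 of the 16 probes on the strand opposite to its gene. No mm7 exon annotation was used here, so probes are placed by coordinate only.

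Signals are given on a log2 scale on which the 75th percentile of the array is subtracted, so 0 is the level of the 75th percentile spot. Differences are BRG1 siRNA minus control siRNA on that log2 scale, and levels are compared within a probe only, never between probes. Values of single arrays follow the order of the replicate numbers 1, 2 and 3. Spots well above background made up 60.9% to 75.3% of each array. The siRNA lowered its target, Smarca4, to 65.8% of the control signal at its brightest probe (log2 -0.60 ± 0.06 SE, limma adjusted p = 0.00365). Its other probes read 54.7% and, at a dim probe, 66.2% of control (limma adjusted p over probes = 0.00181 and 0.00862). ES cell markers were bright on every array, with all 10 tested, 3 raised and 1 lowered (40% called, against 23.3% of all tested genes). The labels name no slide, and the number in the name of each scan was read here as that of its slide. By that reading the 3 control arrays and BRG1 siRNA replicate 1 shared slide 1, and BRG1 siRNA replicates 2 and 3 were on slide 2. Slide 2 thus held no control array. With slide as a block, or within slide 1, a change is therefore that of BRG1 siRNA replicate 1 alone against the 3 controls. Nothing in the labels ties the replicates to separate cultures, so the p-values cover the spread between these arrays alone, and that spread may be technical. In RNA of a whole culture, fewer cells of a type and less RNA per cell cannot be told apart.

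When BRG1 was reduced, genes of the LIF pathway set passed the test at about the share of all tested genes. Of the 9 member genes tested, Lifr and Pim1 rose, none fell, and 7 did not pass the test (limma, Benjamini-Hochberg adjusted p under 0.05; at an unadjusted p under 0.05 the same 2 rose and 0 fell). That is 22.2% of the members, where 23.3% of all 17758 tested genes were called, 9.87% raised and 13.4% lowered. The share of members called was thus close to that of genes in general. The median log2 change of the members was 0.0020 and that of all tested genes was -0.04 (-0.0373), and the median absolute changes were 0.10 and 0.15. The BRG1 siRNA and control arrays did not overlap for 4 of the 9 members, Lifr, Socs3, Pim1 and Bcl3, or 44.4%, against 44.0% of all tested genes. Scaling on 320 spike-in spots raised the median of all genes to 0.18 and the share of rises among called genes from 42.3% to 80.0%, so a direction given here holds for the 75th percentile scale unless another scale is named.

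**Figure D1:**
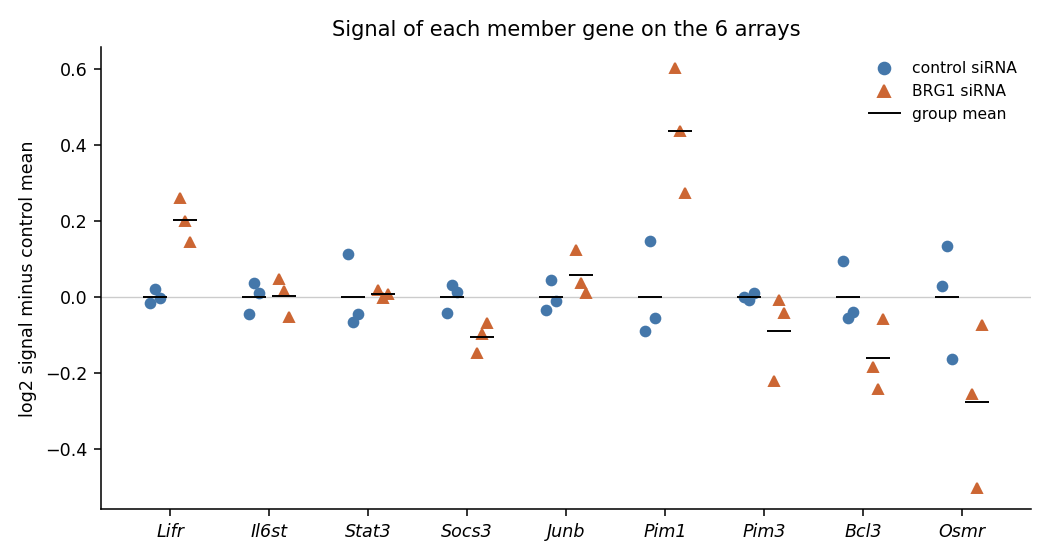
Log2 signal of the brightest probe of each of the 9 member genes on each array, as the difference from the mean of that gene's 3 control arrays (circles, control siRNA; triangles, BRG1 siRNA; bars, group means). All 3 BRG1 siRNA arrays lie above all 3 controls for Lifr and Pim1 and below them for Socs3 and Bcl3, and the groups overlap for the other 5 genes.

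Lifr encodes the LIF-specific chain of the receptor. Its brightest probe, probe 1, read -0.34, -0.31 and -0.33 in controls and -0.07, -0.13 and -0.18 with BRG1 siRNA. All 3 BRG1 siRNA arrays were above all 3 controls, with BRG1 siRNA replicate 1 the highest. The signal went from -0.33 ± 0.02 (SD, n = 3) to -0.13 ± 0.06 (SD, n = 3), a rise of 0.20 ± 0.05 (SE) or 1.15-fold with a 95% interval of 1.06-fold to 1.24-fold (limma adjusted p = 0.0294).

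The other 3 Lifr probes, which read the same gene and so are no independent replicates, gave differences of 0.24 each. Probe 2, at chr15:7012421-7012480, read -3.20, -3.53 and -3.55 in controls and -3.27, -3.28 and -3.04 with BRG1 siRNA, overlapping groups with a difference of 0.24 ± 0.12 (SE) that did not pass the test (limma adjusted p over probes = 0.223). Probe 3 read -2.19, -2.26 and -2.26 in controls and -2.06, -1.89 and -2.04 with BRG1 siRNA, a rise of 0.24 ± 0.06 (SE, adjusted p over probes = 0.0444). Leaving out any single array ended that call (adjusted p over probes = 0.0566 to 0.151), as did a slide block (0.18, adjusted p = 0.246). Probe 4, at chr15:7017960-7018019, read -1.79, -2.06 and -1.94 in controls and -1.70, -1.63 and -1.73 with BRG1 siRNA. Its difference of 0.24 ± 0.08 (SE) left the groups apart but missed the threshold (adjusted p over probes = 0.0829). None of the 3 differed from probe 1 in its change beyond the spread between arrays: the differences of 0.04 (0.0353 to 0.0403) gave exact two-sided permutation p = 0.5 to 0.7, where 3 arrays against 3 cannot go below 0.1.

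The Lifr call needed nearly all arrays, and held only when BRG1 siRNA replicate 3 was the array left out (limma adjusted p = 0.0255). It was lost without control replicate 1, 2 or 3 (adjusted p = 0.0869, 0.0879 and 0.113) and without BRG1 siRNA replicate 1 or 2 (0.0757 and 0.0942), with rises between 0.17 and 0.23 whichever array was left out. With slide as a block, or within slide 1, the rise was 0.26, from BRG1 siRNA replicate 1 alone against the controls, and the call was lost. It was also lost with median scaling (adjusted p = 0.202), spike-in scaling (rise of 0.42, adjusted p = 0.0894), normexp with 75th percentile scaling (0.0557) and no filter on dim probes (0.106). The rise kept its sign in all 21 alternative settings. Several of them, such as the filters and the replicate block, alter the test and cannot alter the rise itself.

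Il6st encodes gp130, the signalling chain shared by the whole cytokine family. Its single probe, at chr13:109662276-109662335, read 0.78, 0.86 and 0.84 in controls and 0.87, 0.84 and 0.77 with BRG1 siRNA. The groups overlapped fully, and the means were 0.83 ± 0.04 and 0.83 ± 0.05 (SD, n = 3 each). The change of 0.0020 ± 0.05 (SE, limma adjusted p = 0.98) had a 95% interval of 92.4% to 109% of the control signal. Only 0.794% of all tested genes had a smaller absolute change. The rise of Lifr exceeded the change of Il6st by 0.20, with the arrays of the groups fully apart in this difference (exact permutation p = 0.1, the smallest that 3 arrays against 3 allow, and 0.1 adjusted over 3 gene pairs compared).

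Osmr encodes the oncostatin M receptor chain, and its signal was dim. The brighter probe, at chr15:6640433-6640492, read -4.33, -4.22 and -4.52 in controls and -4.61, -4.86 and -4.43 with BRG1 siRNA, where 2 of the 3 arrays put it well above background. All 3 controls did so, and the probe thus entered the test through the control group alone, where it was higher. BRG1 siRNA replicate 3 lay within the range of the controls. The difference of -0.28 ± 0.13 (SE) did not pass the test (limma adjusted p = 0.187), and its 95% interval ran from 65.8% to 104% of control. The second probe, at chr15:6641790-6641849, was not well above background on any of the 6 arrays and was not tested.

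Lif itself had no probe under its symbol. One probe named by a cDNA accession is described in the array files as leukemia inhibitory factor cDNA and lies on chromosome 11; it was picked out after its values were seen. It read -1.27, -1.63 and -1.54 in controls and -1.40, -1.24 and -1.18 with BRG1 siRNA, with overlapping groups and a difference of 0.21 ± 0.11 (SE, limma adjusted p = 0.238). Whether it reads the Lif messenger RNA was not tested.

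Stat3, the transcription factor of the pathway, had a probe at chr11:100997323-100997382 (minus strand) that was printed in 10 spots on each array. The mean of the 10 spots was 1.99, 1.81 and 1.83 in controls and 1.89, 1.88 and 1.88 with BRG1 siRNA. The BRG1 siRNA arrays fell between the controls. The SD between spots of one array was 0.017 to 0.068, the SD between control arrays was 0.099, and that between BRG1 siRNA arrays was 0.0097, so control replicate 1 stood above the other controls by more than its spots scattered. Means of 1.88 ± 0.10 and 1.88 ± 0.01 (SD, n = 3 each) gave a change of 0.0068 ± 0.06 (SE, limma adjusted p = 0.947), with a 95% interval from 90.8% to 111% of the control signal. A smaller absolute change was found for 2.48% of tested genes.

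**Figure D2:**
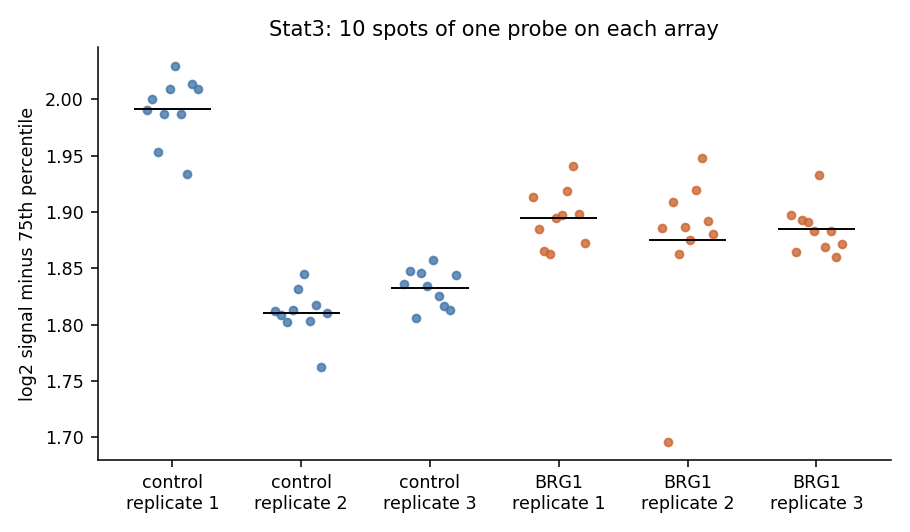
Log2 signal of the 10 spots of the brightest Stat3 probe on each of the 6 arrays, scaled to the 75th percentile of each array (points, spots; bars, mean of the 10 spots; blue, control siRNA; orange, BRG1 siRNA). The mean of control replicate 1 is the highest at 1.99, control replicates 2 and 3 are the lowest at 1.81 and 1.83, and the BRG1 siRNA arrays lie between at 1.88 to 1.89.

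A second Stat3 probe, designed on a cDNA clone at chr11:100994187-100994246 on the same strand, was dim. It read -4.22, -4.87 and -4.46 in controls and -4.86, -4.87 and -4.91 with BRG1 siRNA, well above background on all 3 controls and 2 BRG1 siRNA arrays. The probe thus entered the test through the controls alone, where its mean was higher. Control replicate 2 was as low as the BRG1 siRNA arrays. The difference of -0.36 ± 0.16 (SE) did not pass the test (limma adjusted p over probes = 0.174), but it did without control replicate 2 (-0.54, adjusted p = 0.0422) and with array weights (adjusted p = 0.0435). The first of these passes leaves out the control that was as low as the BRG1 siRNA arrays. The second comes from a setting that called 8214 of 17758 genes, so neither is support for a fall. The difference shrank to -0.21 without control replicate 1 (adjusted p = 0.331), to -0.15 and -0.11 with normexp under 75th percentile and quantile normalization, and to -0.15 with spike-in scaling. The change at this probe differed from that at the repeated probe by -0.37 (exact permutation p = 0.1, the smallest possible, and 0.3 adjusted over 6 probe pairs).

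Socs3, the feedback inhibitor that is among the most direct readouts of STAT3, was bright and nearly level. Its probe at chr11:118075211-118075270 read 4.66, 4.74 and 4.72 in controls and 4.56, 4.61 and 4.64 with BRG1 siRNA. All 3 BRG1 siRNA arrays were below all 3 controls, by a small margin. The means were 4.71 ± 0.04 and 4.60 ± 0.04 (SD, n = 3 each), and the difference of -0.10 ± 0.04 (SE), or 93.0% of control with a 95% interval of 86.3% to 100.3%, did not pass the test (limma adjusted p = 0.143). It passed with normexp and 75th percentile scaling (-0.15, adjusted p = 0.0473) and with array weights (-0.12, adjusted p = 0.0281), and its sign turned with spike-in scaling (0.11, adjusted p = 0.618).

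Bcl3 resembled Socs3. Its probe at chr7:17490887-17490946 read 3.49, 3.34 and 3.36 in controls and 3.21, 3.15 and 3.34 with BRG1 siRNA, so that the highest BRG1 siRNA array came just under the lowest control. The difference of -0.16 ± 0.07 (SE) amounted to 89.4% of control with a 95% interval of 79.3% to 101%, and did not pass the test (limma adjusted p = 0.153). It passed with array weights (-0.18, adjusted p = 0.0293), and its sign turned with spike-in scaling (0.05, adjusted p = 0.80).

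Junb was read by 2 probes whose ends overlap on the minus strand of chromosome 8, at chr8:83563097-83563156 and chr8:83563059-83563118. They share these 22 bases, shown because both probes read this stretch of the gene.
Junb shared bases: ttcgtgtctaaagtctatttta
The brighter probe read 4.56, 4.64 and 4.58 in controls and 4.72, 4.63 and 4.60 with BRG1 siRNA. The other read 4.53, 4.59 and 4.45 in controls and 4.56, 4.42 and 4.40 with BRG1 siRNA. The groups overlapped at each probe, with differences of 0.06 ± 0.05 (limma adjusted p = 0.451) and -0.07 ± 0.06 (SE, adjusted p over probes = 0.519). The 95% interval of the brighter probe was 95.6% to 113% of control. The probes differed in their change by 0.12 (exact permutation p = 0.1, the smallest possible, and 0.3 adjusted over 6 probe pairs).

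Pim1 showed the largest change among the members. Its sense-strand probe, probe 2, read -0.50, -0.26 and -0.46 in controls and 0.20, 0.03 and -0.13 with BRG1 siRNA. Every BRG1 siRNA array lay above every control, and BRG1 siRNA replicate 1 was again the highest. The signal went from -0.41 ± 0.13 to 0.03 ± 0.16 (SD, n = 3 each), a rise of 0.44 ± 0.11 (SE) or 1.35-fold with a 95% interval of 1.13-fold to 1.63-fold (limma adjusted p = 0.0362).

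The opposite-strand probe of Pim1, probe 1, was dim and showed no such pattern. It read -4.23, -4.74 and -4.84 in controls and -4.74, -4.56 and -4.19 with BRG1 siRNA, with overlapping groups and a difference of 0.11 ± 0.21 (SE, limma adjusted p over probes = 0.747). Its change differed from that of probe 2 by -0.33, less than the SDs of that difference between arrays of a group, 0.40 and 0.44 (exact permutation p = 0.4, and 0.7 adjusted over 6 probe pairs).

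The Pim1 call, like that of Lifr, needed nearly all arrays. It was lost without control replicate 1, 2 or 3 (adjusted p = 0.101, 0.0575 and 0.126) and without BRG1 siRNA replicate 1 or 2 (0.0878 and 0.111), with rises from 0.36 to 0.52 when single arrays were left out. With slide as a block, or within slide 1, the rise was 0.60, from BRG1 siRNA replicate 1 alone against the controls, and the call was lost. The call was also lost with median scaling (adjusted p = 0.0931), without a filter on dim probes (0.103) and with the mean over its 2 probes, where the rise was 0.27 (adjusted p = 0.0741). The rise kept its sign in all 21 alternative settings, of which several, as for Lifr, cannot alter it.

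Pim3, the sister kinase, did not move with Pim1. Its probe at chr15:88947531-88947590 read 3.31, 3.30 and 3.32 in controls and 3.09, 3.30 and 3.26 with BRG1 siRNA. BRG1 siRNA replicate 1 was low, and BRG1 siRNA replicate 2 lay among the controls. The difference of -0.09 ± 0.07 (SE) did not pass the test (limma adjusted p = 0.36), with a 95% interval of 84.0% to 105% of control. It was -0.026 without BRG1 siRNA replicate 1 (adjusted p = 0.72), -0.22 with a slide block (adjusted p = 0.0733) and 0.13 with spike-in scaling (adjusted p = 0.562). The change of Pim1 exceeded that of Pim3 by 0.53 (exact permutation p = 0.1, the smallest possible).

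The third kinase of this family, Pim2, is no member of the set but completes it. It read 1.49, 1.68 and 1.67 in controls and 0.85, 0.89 and 0.84 with BRG1 siRNA, a fall of 1.69-fold (log2 -0.75 ± 0.06 SE, limma adjusted p = 0.00212). The groups were far apart, and the change of Pim1 exceeded that of Pim2 by 1.19 (exact permutation p = 0.1, the smallest possible, and 0.1 adjusted over 3 gene pairs). The 3 PIM kinase genes thus read 1 rise, 1 fall and 1 change that did not pass the test.

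**Figure D3:**
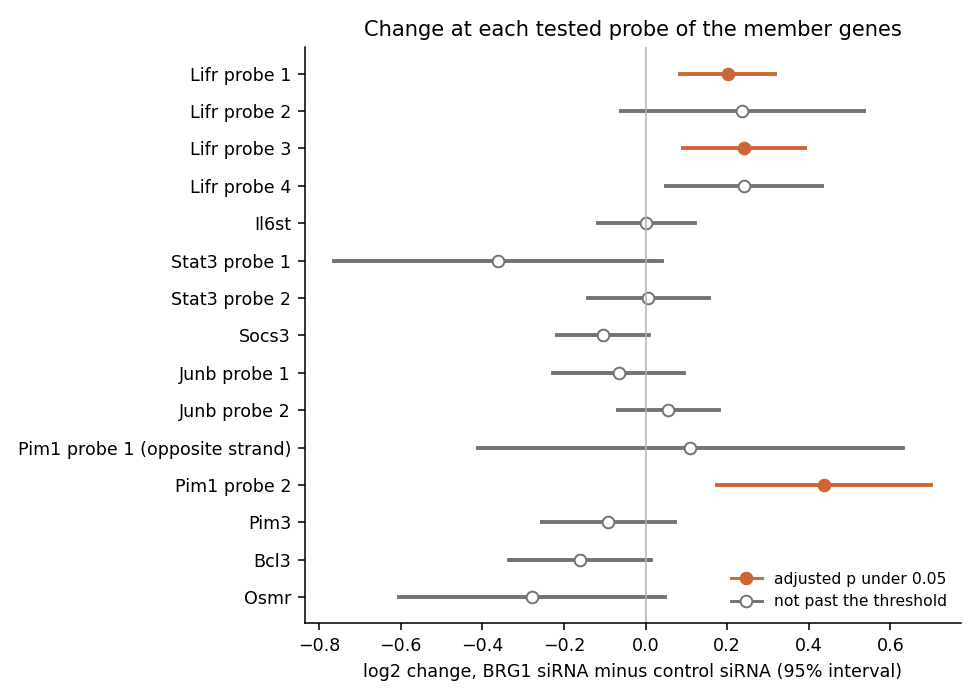
Log2 change between BRG1 siRNA and control siRNA arrays at each of the 15 tested probes of the member genes, with 95% intervals (filled orange, adjusted p over probes under 0.05; open grey, not past the threshold); probes of a gene are numbered by coordinate. The 3 probes past the threshold are Lifr probe 1, Lifr probe 3 and Pim1 probe 2, and the intervals of Il6st, of Stat3 probe 2 and of the Junb probes are centred near 0.

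Over single probes, 3 of the 15 member probes tested were called, all raised, where 19.6% of all 26258 tested probes were called and 8.60% were raised. The groups did not overlap at 6 of the 15, against 41.6% of all tested probes. The profile of Stat3 over the 6 arrays lay nearest to that of Hrh3, a histamine receptor gene (Euclidean distance of 0.037 between mean-centred log2 values, where the median over 16491 genes was 0.30). The profile of Pim1 lay nearest to that of Utf1, an ES cell chromatin factor gene (distance 0.077, median 0.71 over 16491 genes), followed by 2 probes without a gene symbol. A gene picked as the nearest of so many lies far under the median distance by that choice. The rise of Utf1 by 0.43 (limma adjusted p = 0.0298) follows from its being picked for likeness to Pim1. Its call was lost without any 1 of 5 of the arrays (highest adjusted p = 0.107), which the same choice favours. Neither is separate support for the change of Pim1.

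The start regions of the members were searched for the letters of a STAT site, TTCNNNGAA, which reads the same on either strand, in RefSeq windows from 250 bases before to 50 after each start site (build GRCm38.p6; all 10 members matched, with 12 windows). Socs3 alone held a match, 1 of 10 members, where 9.55% of 27025 genes and 8.30% of 32851 windows had one. The tighter form TTCCNGGAA was in none of the 10, against 1.35% of genes. The Socs3 match is shown with 10 flanking bases on each side, in capitals, from chr11:117969502-117969530 on the minus strand. It lies at -154 to -146 from the start site of that window, which is one of the gene's annotated starts and falls inside its annotated span.
Socs3 match: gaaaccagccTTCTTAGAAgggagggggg
A match of letters is a description and not a binding site, and a window without one says only that these letters are not in it.

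Other genes of the pathway, from lists described by their counts alone, moved in both directions. Called were 11.1% of the tested ligands of the family, 25% of its other receptors and 40% of JAK kinases and other STAT factors. So were 28.6% of negative regulators and 22.2% of the PI3K and MAPK arms, against 23.3% of all tested genes. Among JAK kinases and other STAT factors, 2 of 10 rose and 2 fell, with a median of -0.13. Jak1, the kinase that carries most gp130 signals, read 0.95, 0.89 and 0.88 in controls and 1.43, 1.50 and 1.33 with BRG1 siRNA, where each array was above every control. That rise of 1.43-fold (log2 0.51 ± 0.06 SE, limma adjusted p = 0.00391) was called in every alternative setting except slide 1 alone. With slide as a block it was 0.52, a value from BRG1 siRNA replicate 1 alone against the controls. Jak2, a related kinase, rose 1.22-fold (adjusted p = 0.00728); a slide block (0.30, adjusted p = 0.0531), median scaling (0.0911) and slide 1 alone (0.0907) ended that call.

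Stat4, the STAT of interleukin-12 signalling, fell 1.66-fold (log2 -0.73 ± 0.07 SE, limma adjusted p = 0.00262), a call kept in every setting except slide 1 alone (adjusted p = 0.0706). The 6 genes of this list that did not pass the test had differences between -0.27 and 0.02.

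**Figure D4:**
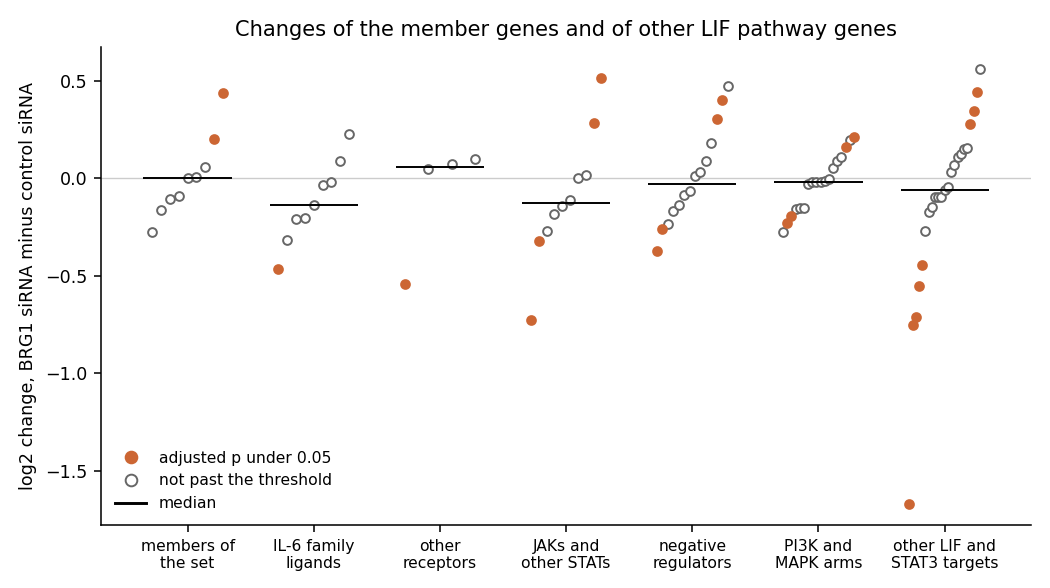
Log2 change of every tested gene of the set and of 6 lists of other LIF pathway genes (filled orange, limma adjusted p under 0.05; open grey, not past the threshold; bars, medians). Medians lie between -0.13 and 0.06, and the largest fall is that of Sp5 at -1.67.

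Ligands and other receptors of the family were mostly dim and not called. Of 9 tested ligand genes 1 fell, with a median of -0.13: Ebi3, a subunit of interleukin-27, fell 1.38-fold (adjusted p = 0.00612; lost with spike-in scaling, 0.255, and slide 1 alone, 0.0625). Of 4 other receptor genes 1 fell, with a median of 0.06: Cntfr, the binding chain for ciliary neurotrophic factor, fell 1.46-fold (adjusted p = 0.00985). A slide block ended the Cntfr call (0.0817), as did spike-in scaling (0.145), slide 1 alone (0.0663) and leaving out control replicate 3 (0.0501).

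Negative regulators of JAK-STAT signalling showed 2 rises and 2 falls among 14, with a median of -0.03 (-0.0275). Pias3, an inhibitor of STAT3, rose 1.32-fold (adjusted p = 0.016), and Socs7 rose 1.24-fold (adjusted p = 0.00965). Socs1, the closest relative of Socs3 in function, fell 1.29-fold (adjusted p = 0.018), and the phosphatase gene Ptpn2 fell 1.20-fold (adjusted p = 0.014). With spike-in scaling the falls of Socs1 and Ptpn2 shrank to -0.16 and -0.045 (adjusted p = 0.445 and 0.848), and with median scaling their adjusted p was 0.0604 and 0.268. Median scaling also ended the Pias3 call (adjusted p = 0.0555). Of these 4 genes, Pias3, Socs1 and Socs7 were lost with slide as a block (0.0958, 0.0681 and 0.0779). The Pias3 call also needed control replicates 2 and 3 and BRG1 siRNA replicate 1, that of Socs1 every array except BRG1 siRNA replicate 3, and that of Ptpn2 control replicates 2 and 3 and BRG1 siRNA replicate 2 (adjusted p up to 0.073, 0.0781 and 0.0711 without one of them).

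In the PI3K and MAPK arms of the receptor, 2 of 18 genes rose and 2 fell, with a median of -0.02 (-0.0166). Sos1 and Map2k2 rose 1.16-fold and 1.12-fold, and Mapk3, which encodes ERK1, fell 1.17-fold (adjusted p = 0.043, 0.0454 and 0.0272). These 3 calls were lost without control replicate 2 or 3 and without BRG1 siRNA replicate 1 or 2, and those of Sos1 and Map2k2 also without control replicate 1 and that of Map2k2 without BRG1 siRNA replicate 3, with adjusted p up to 0.135, 0.148 and 0.11. Median scaling (adjusted p = 0.174, 0.213 and 0.37) and spike-in scaling (0.0821, 0.0995 and 0.958) also ended all 3 calls, and Mapk3 read -0.014 with the latter. A slide block ended the calls of Map2k2 (0.11, adjusted p = 0.246) and Mapk3 (-0.27, adjusted p = 0.0848).

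Among other LIF and STAT3 target genes 3 of 23 tested rose and 5 fell, 34.8% of the list against 23.3% of all genes, with a median of -0.06. The list mixes genes with several inputs. Klf4, a naive pluripotency factor and LIF target, rose 1.27-fold (log2 0.34 ± 0.07 SE, limma adjusted p = 0.0179), and read 4.23, 4.37 and 4.23 in controls and 4.64, 4.69 and 4.53 with BRG1 siRNA. Myc rose 1.36-fold (0.45 ± 0.08, adjusted p = 0.0158) and Cebpd 1.21-fold (adjusted p = 0.0179). Median scaling ended the calls of Klf4 and Cebpd (adjusted p = 0.0931 and 0.0746). Having no filter on dim probes ended those of Klf4, Myc and Cebpd, and the replicate block that of Cebpd. These 3 rises were lost with slide as a block (adjusted p = 0.0917, 0.111 and 0.121) and needed several single arrays: Klf4 control replicates 1 and 3 and BRG1 siRNA replicates 1 and 2, Myc control replicates 2 and 3 and BRG1 siRNA replicate 1, and Cebpd every control array and BRG1 siRNA replicate 2 (adjusted p up to 0.0792, 0.0643 and 0.0761 without one of them).

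Among the 5 falls in that list, besides that of Pim2, Sp5, a factor induced by WNT as well as LIF, fell 3.18-fold (log2 -1.67 ± 0.10 SE, limma adjusted p = 0.00114). Egr1, an immediate-early factor of ERK signalling, fell 1.64-fold (-0.71 ± 0.07, adjusted p = 0.00281). The calls of Sp5, Pim2 and Egr1 held in every alternative setting except slide 1 alone (adjusted p = 0.0572, 0.0699 and 0.0509). Gbx2 and Klf5, both LIF targets, missed the threshold at differences of 0.15 and 0.16 (adjusted p = 0.0592 and 0.0809).

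Markers of other cell types were measured on the same arrays. Called shares were 55.6% for fibroblast, 33.3% for endoderm, 62.5% for trophectoderm and 14.3% for blood and immune markers, against 23.3% of all tested genes. Of 18 tested fibroblast markers 8 fell and 2 rose, and their summed linear signal, in units of the 75th percentile signal, was 68.7 to 71.3 in controls and 55.5 to 57.0 with BRG1 siRNA, with Pdgfra, Lum and Fap below the filter. Of 9 primitive and visceral endoderm markers 3 fell and none rose (summed signal 1.92 to 2.01 and 1.68 to 1.71; Afp below the filter), and of 8 trophectoderm markers 2 rose and 3 fell (77.4 to 89.0 and 89.0 to 93.9; Elf5 below the filter). Of 7 blood and immune cell markers 1 rose and none fell (0.893 to 1.11 and 0.978 to 1.04; Ptprc, Adgre1 and Lyz2 below the filter). A few bright genes set these sums: Krt18 and Krt8, neither past the threshold, gave 88.1% to 89.3% of the trophectoderm sum, and Acta2, not past the threshold, and Tagln, lowered, gave 72.3% to 78.8% of the fibroblast sum. The part of these cell type markers in the changes of Lifr and Pim1 was not tested.

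**Figure D5:**
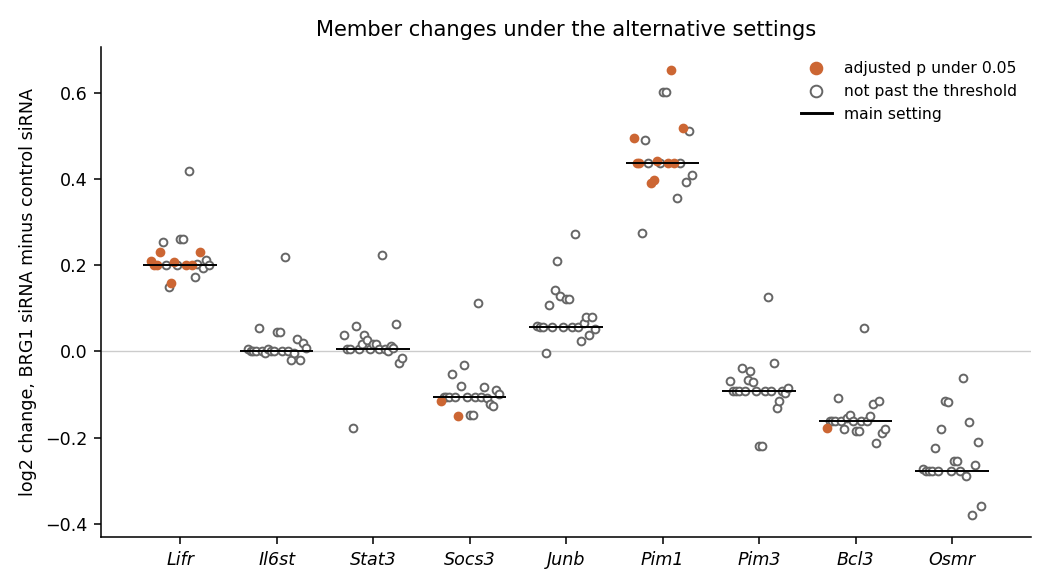
Log2 change of each of the 9 member genes under each alternative setting of the analysis (points; filled orange, limma adjusted p under 0.05; open grey, not past the threshold; bars, value as reported). Lifr and Pim1 stay above 0 and Osmr below 0 in every setting run, while the other 6 genes cross 0 under at least 1 setting. Osmr has no value under the filter for all 6 arrays, and several settings alter the test alone and cannot turn a sign.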

How the data were processed

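Total RNA (500 ng per labelling, per the labels' protocols) of ES cells was profiled on 6 single-colour Agilent arrays of 45018 spots. The values the authors deposited are linear spot intensities from Feature Extraction 9.5.3.1, per the file headers (9.5 per the submitters' processing notes). The processed signal is background-subtracted and detrended within the array, not normalized between arrays. The deposited value table equals it (largest difference 0; array medians 161.8 to 185.5), so it is linear and uncentred, with no ratio direction.

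From it, log2 values were taken and the 75th percentile of each array subtracted. The 1639 control spots and outlier spots (387 on at least 1 array, none of a member) were left out, spots of a probe were averaged, and a gene was represented by its brightest probe. Genes that all arrays of either group put well above background were compared with limma 3.58.1 in R 4.3.3 (two-sided, Benjamini-Hochberg over all 17758 genes, or over all 26258 probes where stated). List symbols were matched by RefSeq accession or symbol through GRCm38.p6 names. The fit was checked on simulated data. Members and lists were chosen with earlier results of these data known, so lists get no test; the named list genes are up to 3 per direction past the threshold with the largest change, besides all members, Smarca4 and the nearest profiles, and Gbx2 and Klf5 were named after their values were seen, as were the pairs of probes and genes compared by exact permutation. Some genes that this rule takes are not reported here. The 21 alternatives are in the closing section. The number of arrays limits the precision.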

Additional observations from a re-analysis of the deposited data

How the results depend on the processing

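Settings are compared with 4139 called genes (1752 raised), 2 called member genes, 3 called member probes and a median member change of 0.0020. With median scaling, spike-in scaling, no filter on dim probes, slide as a fixed block, slide 1 alone and array weights the called genes numbered 1734, 1937, 1740, 1392, 59 and 8214; leaving out single arrays gave 1641 to 4413. Called member genes numbered 0 with median scaling, no filter, slide as a fixed block and slide 1 alone (limma; at an unadjusted p under 0.05, 1, 2, 2 and 2 members rose, and 0, 0, 1 and 1 fell), 1 with spike-in scaling, 1 with probes averaged, 4 with array weights, and 0 to 2 without single arrays. Called member probes numbered 0 with median scaling, no filter, slide as a fixed block and slide 1 alone, 7 with array weights, and 0 to 2 without single arrays. These member counts are to be read beside those of all genes. Array weights called 8214 of 17758 tested genes, no filter 1740 of 27961, and the mean over probes 3521 of 17771. Counts over all probes are not given here for each setting. The median member change was 0.055 with median scaling, 0.22 with spike-in scaling, -0.091 with the mean over probes, and -0.027 to 0.0070 without single arrays.

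Signs that turned were those of changes not past the threshold: Il6st with normexp and 75th percentile scaling (-0.0027) and without single arrays (-0.021 to 0.030), Stat3 with the mean over probes (-0.18) and without single arrays (-0.027 to 0.063), Junb with the mean over probes (-0.0045), and Socs3, Pim3 and Bcl3 with spike-in scaling (0.11, 0.13 and 0.055). The cause of these shifts was not tested.

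Same-numbered replicates did not deviate together (correlations of -0.31, 0.11 and -0.02). These are deviations from means of 3 arrays per group, so they cannot show whether the numbers pair cultures. With the replicate block 1945 genes, 0 member genes and 0 member probes were called (limma; 2 members at an unadjusted p under 0.05), with fewer residual degrees of freedom, and Jak2 was among the genes not called (adjusted p = 0.0501). Signal near background limits Osmr, Stat3 probe 1 and Pim1 probe 1.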
